A study of Mus musculus with 6 samples.

Results

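A set of 4 genes of the azurophil (primary) granules of neutrophils was followed through the leukocytes of inflamed mouse joints. They are Elane, Prtn3 and Ctsg, which encode the serine proteases neutrophil elastase, proteinase 3 and cathepsin G, and Mpo, which encodes myeloperoxidase. They were taken by symbol from the 20394 genes of the count table, and all 4 had a row. Azurophil granules are the first granules that a developing neutrophil fills. Their mRNAs are known to be made at the promyelocyte stage and shut off before the secondary granule mRNAs (lactoferrin, cathelicidin, neutrophilic granule protein, lipocalin) take over, so that mature neutrophils carry the proteins without much of the message. The 3 proteases cut matrix and microbial proteins, and myeloperoxidase makes hypochlorous acid from hydrogen peroxide.

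The cells were CD45+ cells sorted from digested knee joints of C57BL/6 mice (male, 8 weeks old when bought, per the study's methods) with antigen-induced arthritis (AIA), and each was profiled by droplet single-cell RNA sequencing of mRNA 3′ ends. All mice were immunized with 10 μg methylated bovine serum albumin (mBSA) in complete Freund's adjuvant and challenged in the knee with 100 μg mBSA on day 21, and the tissue came from 3 days after challenge. From day 21, the mice of 2 samples received vehicle (phosphate-buffered saline), and those of 4 samples received 300 μg PEPITEM, a peptide that limits leukocyte traffic into inflamed tissue. The 32953 cells of the 6 samples stand in 1 table, with a library number from 1 to 6 at the end of each barcode. No label or file used here says which number is which sample, so the treatments could not be set against each other. The libraries are given as 6 libraries of unknown treatment, and no test was run.

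The libraries held 2919 to 9345 cells and 47273569 to 123367661 UMIs (unique molecular identifiers, each standing for 1 captured mRNA molecule), and 138 barcodes occurred in more than 1 library. Levels are given as CPM, the UMIs of a gene per 1000000 UMIs of the same cells. Since 3′ tags are counted once per molecule, the values were not divided by gene length. Brackets after a pooled value give a 95% interval from counting alone (Poisson for CPM, Wilson for percentages), and the lowest, median and highest of the 6 libraries show how far the libraries lay apart. Cells were clustered without the 4 genes, and clusters were named from lists of marker genes, so a name with "-like" is only as good as those markers.

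The genes lie at 3 places in the mouse genome (GRCm38, GENCODE vM21). Prtn3 (chr10:79874476-79883174) and Elane (chr10:79886247-79888215) stand in the same direction on the plus strand, 3072 bases apart. Mpo (chr11:87793581-87804413, plus strand) has up to 14 annotated exons, and each of the proteases has up to 5. Ctsg (chr14:56099881-56102574, minus strand) lies between Mcpt8 and Gzme, both genes for granule serine proteases of other blood cells. The longest identical stretch between transcripts of any pair of the 4 genes was 17 bases (Elane and Prtn3). Prtn3 overlaps the opposite-strand gene Plppr3 by 159 bases, and Mpo overlaps the opposite-strand gene Gm11505, while Elane and Ctsg overlap no annotated gene.

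The promoters are shown because the 4 genes, from 3 separate loci, were all highest in the same cell class, the granulocyte precursor-like cells. Their patterns differed elsewhere. Each window is the RefSeq sequence (GRCm38.p6) from 250 bases before the transcription start to 50 bases after it, read 5′ to 3′ on the strand of the gene: chr10:79886062-79886361 for Elane, chr10:79879417-79879716 for Prtn3, chr11:87793534-87793833 for Mpo and chr14:56102525-56102824 for Ctsg. The starts of Prtn3, Elane and Mpo lie inside the span of the GENCODE gene, so some bases before the start belong to it, while the start of Ctsg is the end of its span. Capitals mark AGGAAG or its reverse complement CTTCCT, the core letters bound by ETS factors such as PU.1 (Spi1).
Elane: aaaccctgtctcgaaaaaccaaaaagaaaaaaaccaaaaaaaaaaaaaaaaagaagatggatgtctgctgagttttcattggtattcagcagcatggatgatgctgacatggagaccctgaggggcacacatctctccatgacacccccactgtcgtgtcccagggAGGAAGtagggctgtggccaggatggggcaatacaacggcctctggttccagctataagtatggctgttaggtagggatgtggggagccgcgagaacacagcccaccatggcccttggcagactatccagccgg
Prtn3: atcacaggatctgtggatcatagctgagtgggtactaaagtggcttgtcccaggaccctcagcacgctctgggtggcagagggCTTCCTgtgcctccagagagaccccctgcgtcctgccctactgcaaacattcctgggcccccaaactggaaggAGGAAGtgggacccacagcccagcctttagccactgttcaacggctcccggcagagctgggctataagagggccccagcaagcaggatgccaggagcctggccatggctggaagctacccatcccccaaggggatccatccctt
Mpo: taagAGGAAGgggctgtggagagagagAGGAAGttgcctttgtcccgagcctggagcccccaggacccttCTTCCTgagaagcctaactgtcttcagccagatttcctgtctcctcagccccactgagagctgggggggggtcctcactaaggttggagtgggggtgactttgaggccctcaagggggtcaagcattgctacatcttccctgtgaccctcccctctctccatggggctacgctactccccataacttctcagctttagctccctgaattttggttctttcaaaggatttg
Ctsg: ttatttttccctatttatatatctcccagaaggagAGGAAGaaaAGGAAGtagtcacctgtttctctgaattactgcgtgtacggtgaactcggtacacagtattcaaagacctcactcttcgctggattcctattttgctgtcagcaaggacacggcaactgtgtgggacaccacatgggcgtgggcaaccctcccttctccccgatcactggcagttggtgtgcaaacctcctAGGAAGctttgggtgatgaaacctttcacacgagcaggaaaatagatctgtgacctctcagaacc

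AGGAAG, searched on both strands, occurred in 4 of the 4 windows and in 35.4% of 32851 promoter windows of the same length. In Elane it began at -84 relative to the start, in Prtn3 at -94 and -167, in Mpo at -180, -223 and -246, and in Ctsg at -15, -206 and -215. AACNG, the core of the Myb site, was also in all 4 windows, but it was in 80.3% of all windows. TGTGGT, the Runx core, was in the Ctsg window alone (16.8% of all windows), and TTNCNNAA, a loose C/EBP motif, was in 0 of the 4 (40.7%). These matches describe letters only, and binding was not measured.

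Azurophil granule mRNA was concentrated in 1 small class of cells. The granulocyte precursor-like class, led by Ms4a3, Prss57 and Cst7, held 749 cells (2.27% of the total) and 73.0% of all UMIs of the 4 genes. The class held 81.8% of the Ctsg UMIs, 81.0% of Mpo, 70.2% of Elane and 67.3% of Prtn3. Ptprc, the gene for CD45 on which the cells were sorted, was detected in 96.9% of these cells and 95.8% of all cells. From which tissue of the digested knee the precursor-like cells came was not tested. Together the 4 genes made up 2.32% of the mRNA of the class, against 0.169% in all cells, and their share in a single precursor-like cell ran from 0 to 6.96% with a median of 1.77%. Ranked by UMIs in the class, Elane was the 4th gene, Prtn3 the 5th, Mpo the 12th and Ctsg the 57th. Of the 1326 cells that held all 4 mRNAs, 313 lay outside the stem and progenitor-like, precursor-like and neutrophil-like classes. A single cell held up to 1337 Elane UMIs, 1110 of Prtn3, 640 of Mpo and 610 of Ctsg.

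Within the precursor-like class, Elane stood at 7413 CPM (7380 to 7446), with libraries at 4482, 7359 and 10318 CPM (lowest, median and highest). Prtn3 stood at 7110 CPM, with libraries at 4954, 6435 and 9542 CPM. Mpo stood at 5480 CPM, with libraries at 3510, 5378 and 5913 CPM. Ctsg was the lowest at 3184 CPM, with libraries at 1963, 3064 and 4692 CPM. The library ranges of Elane, Prtn3 and Mpo overlapped, and the highest Ctsg library lay above the lowest library of Elane and of Mpo but below that of Prtn3. Within single libraries, the UMIs per Mpo UMI ran from 1.24 to 1.86 for Elane, 1.04 to 1.72 for Prtn3 and 0.450 to 0.844 for Ctsg. Mpo thus stood below Elane and Prtn3 and above Ctsg in each library. The Elane UMIs per Prtn3 UMI ran from 0.869 to 1.30. At least 1 UMI was found in 98.1% of precursor-like cells for Prtn3, 95.5% for Ctsg, 94.7% for Mpo and 91.1% for Elane, and in 95.8, 87.1, 85.6 and 82.7% after each cell was thinned to 2000 UMIs. In B cell-like cells, which should lack these genes, the shares were 0.962, 0.749, 1.92 and 0.731%, at a median depth of 5738 UMIs per cell against 34465 in the precursor-like class.

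The 8 clusters from stem cells to mature neutrophils were ordered by the ratio of late neutrophil genes to precursor genes. This index places the precursor-like cells first and the stem and progenitor-like cells, which hold little of either gene list, second, although stem cells come earlier in the lineage. The stem and progenitor-like cluster of 589 cells was led by Car1, Angpt1 and Ctla2a. The next step after the precursor-like class was a neutrophil-like cluster of 1560 cells led by Fcnb, Camp and Cebpe, with Mki67, a marker of cycling cells, at 549 CPM. It tied for neutrophil and precursor markers among its 10 leading genes and was named on its 30 leading genes, so values of the neutrophil-like class are given with and without it. The other 5 neutrophil-like clusters held 9644 cells, among them cells with the secondary granule gene Ltf and cells with the late genes Retnlg and Mmp8.

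All 4 genes were higher in the precursor-like class than in the stem and progenitor-like, the Fcnb-led and the later neutrophil-like cells. Elane, in CPM, was 161 in stem and progenitor-like cells, 7413 in precursor-like cells, 1251 in the Fcnb-led cluster and 19.6 in the other neutrophil-like clusters. Prtn3 took the values 422, 7110, 1017 and 16.3 CPM over the same steps. For Mpo they were 578, 5480, 389 and 5.06 CPM. For Ctsg they were 343, 3184, 126 and 1.28 CPM. The stem and progenitor-like levels lay in few cells: 29 of the 589 cells held 95.2% of the Elane UMIs there, and without them Elane was at 8.35 CPM. For the other 3 genes, 103 to 117 cells with 10 or more UMIs held 88.1 to 94.9% of the UMIs. For each gene, the lowest library of the precursor-like class lay above the highest library of both neighbouring clusters, which reached 245 and 1742 CPM for Elane, 530 and 1202 for Prtn3, 716 and 503 for Mpo, and 411 and 186 for Ctsg.

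**Figure D1:**
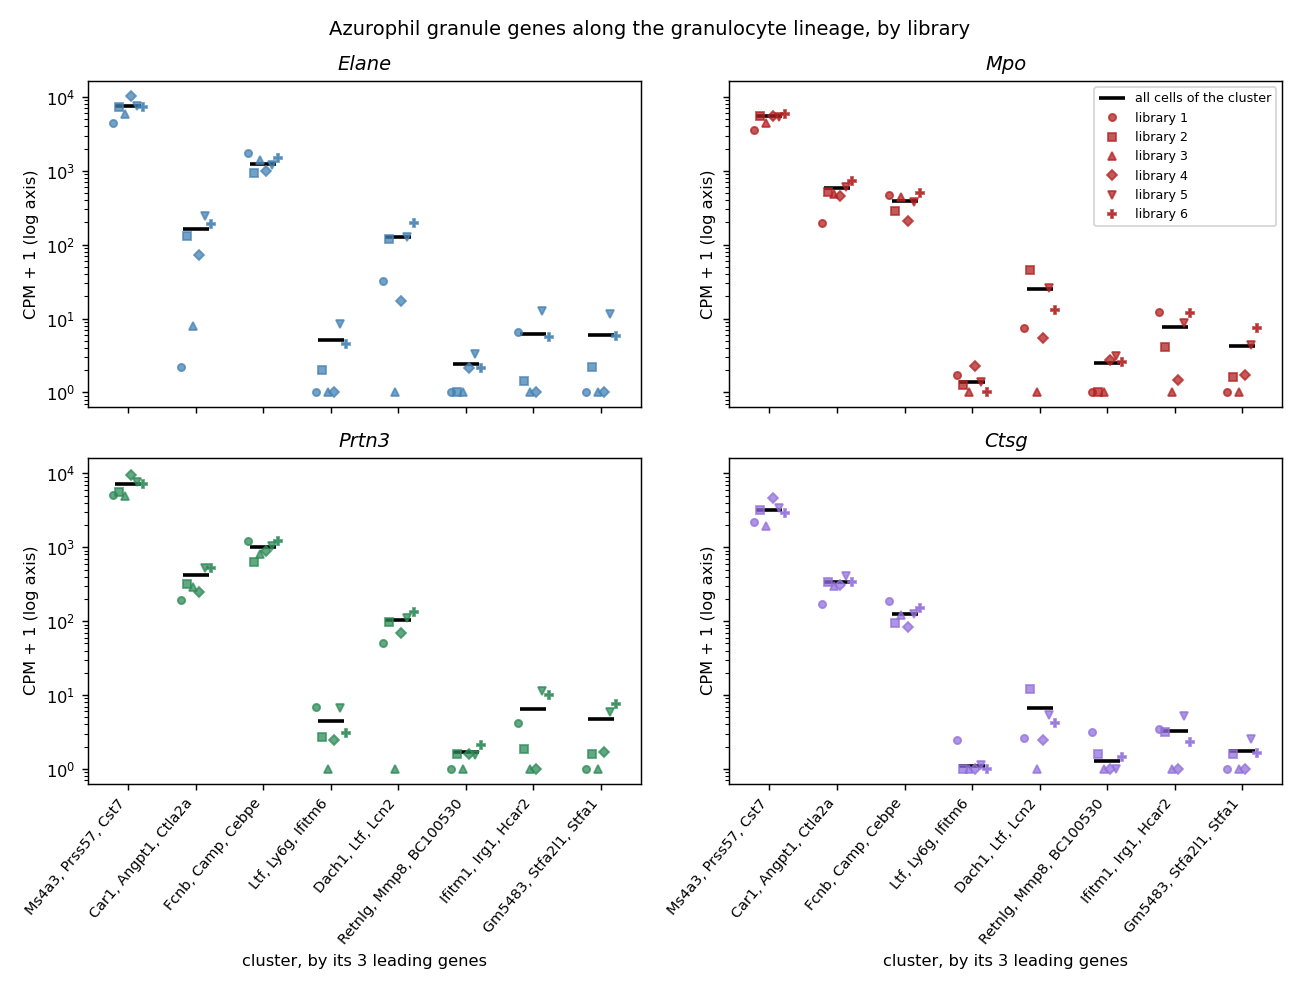
Level of each gene as CPM + 1 (log axis) in the 8 clusters of the granulocyte lineage, named by their 3 leading genes; the bar is the value over all cells of a cluster and each symbol is a library with 10 or more cells there. All libraries of the precursor-like cluster (Ms4a3, Prss57, Cst7) sit above all libraries of the other clusters, and the clusters after the one led by Fcnb, Camp and Cebpe sit near the bottom apart from the one led by Dach1, Ltf and Lcn2.

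The fold between stages differed between the genes. Over stem and progenitor-like cells, the precursor-like level was 46.1-fold higher for Elane (44.1 to 48.1), 16.8-fold for Prtn3, 9.48-fold for Mpo and 9.29-fold for Ctsg. Of 13463 genes compared there, 10.0% were at least 2-fold higher and 1.40% at least 10-fold higher, and the median gene stood at 0.875. Over the Fcnb-led cluster the order was another: 25.2-fold for Ctsg (24.6 to 25.9), 14.1-fold for Mpo, 6.99-fold for Prtn3 and 5.93-fold for Elane. There 42.8% of 13347 genes were at least 2-fold and 6.59% at least 10-fold higher, with a median of 1.73. Thus Elane had the largest of the 4 folds over stem and progenitor-like cells, where 29 cells carried most of its UMIs, and Ctsg the largest over the Fcnb-led cluster.

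Against the whole neutrophil-like class of 11204 cells, the precursor-like level was 15.6-fold higher for Elane, 18.3-fold for Prtn3, 37.1-fold for Mpo and 66.9-fold for Ctsg. All 4 genes were thus among the 11.4% of 14190 genes that were at least 10-fold higher (53.1% were at least 2-fold higher, and the median gene stood at 2.18). Without the Fcnb-led cluster, the folds were 378 for Elane, 436 for Prtn3, 1084 for Mpo and 2484 for Ctsg. With a finer clustering, with the 4 genes allowed in the clustering, or with single-cell gates on marker UMIs, the folds were larger for each gene, from 39.8 to 2450. These settings change which cells are compared and give no separate support. Clustering with the 4 genes can draw their high cells into the precursor-like class. The neutrophil gate left out cells with Ms4a3 or Prss57 and kept 146 cells of the Fcnb-led cluster. Of the 527 cells in the precursor gate, 159 came from that cluster. The Fcnb-led cluster itself stood above the other neutrophil-like clusters by 63.7-fold for Elane, 62.4-fold for Prtn3, 77.0-fold for Mpo and 98.4-fold for Ctsg. There 38.5% of 13128 genes were at least 2-fold and 5.86% at least 10-fold higher.

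In the 9644 later neutrophil-like cells, what was left of Elane and Prtn3 lay in few cells. Cells with 10 or more UMIs of the gene numbered 21 for Elane and 19 for Prtn3, and they held 89.6 and 82.8% of the UMIs. Without those cells the levels were 2.07 CPM for Elane, 2.84 for Prtn3, 2.08 for Mpo and 0.871 for Ctsg, beside 1.41, 1.51, 3.01 and 1.17 CPM in B cell-like cells treated in the same way. At least 1 UMI was found in 1.62% of the later cells for Elane, 1.80% for Prtn3, 1.48% for Mpo and 0.570% for Ctsg. Among the 5 later clusters, the one led by Dach1, Ltf and Lcn2 stood apart, at 124 CPM for Elane, 102 for Prtn3, 24.5 for Mpo and 5.66 for Ctsg, and 17 of its 540 cells held 98.5% of its Elane UMIs. The cluster of late cells led by Retnlg, Mmp8 and BC100530 had 1.40 CPM of Elane, 0.700 of Prtn3, 1.54 of Mpo and 0.280 of Ctsg. In the same gene order, the cluster led by Ltf, Ly6g and Ifitm6, earlier by the index, had 4.10, 3.46, 0.363 and 0.112 CPM. Later by the index, the cluster led by Ifitm1, Irg1 and Hcar2 had 5.19, 5.56, 6.60 and 2.22 CPM. The last cluster, led by Gm5483, Stfa2l1 and Stfa1, had 5.04, 3.69, 3.20 and 0.776 CPM. The levels thus did not fall steadily to the last cluster. Library 3 held 0 UMIs of all 4 genes in the later clusters. It also had the fewest neutrophil-like cells of the 6 libraries, 328 with 23 of them in the Fcnb-led cluster.

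The balance among the 4 mRNAs differed between the stages. For each Mpo UMI there were 0.278 Elane UMIs in stem and progenitor-like cells, with libraries from 0.00613 to 0.401. The ratio was 1.35 in the precursor-like class, with libraries from 1.24 to 1.86. It was 3.21 in the Fcnb-led cluster, with libraries from 2.92 to 4.75. The library ranges of the 3 stages did not overlap, and the ratio does not depend on the depth of the cells. The ratio of Elane to Ctsg behaved likewise, at 0.469, 2.33 and 9.91, with libraries from 0.00714 to 0.597, from 2.05 to 3.02 and from 9.38 to 11.8. Ctsg kept pace with Mpo from stem and progenitor-like to precursor-like cells (0.593 and 0.581), and was lower against it in the Fcnb-led cluster, at 0.324 with libraries from 0.272 to 0.401. Elane and Prtn3, the neighbours on chromosome 10, stood at 0.381, 1.04 and 1.23 Elane UMIs per Prtn3 UMI, and the library ranges of the last 2 stages overlapped.

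A finer clustering (resolution 2.0) gave 2 precursor-like clusters. Together they held more cells than the 749 of the precursor-like class, so they are not a split of it. One, of 613 cells led by Prg2, Gria3 and BC035044, had Cd34, a gene of early progenitors, at 68.1 CPM. It held 3271 CPM of Prtn3, 2713 of Mpo, 2430 of Elane and 1530 of Ctsg. The other, of 612 cells led by Ms4a3, Prss57 and Nkg7, had Cd34 at 2.86, Fcnb at 1443, Camp at 19635 and Ngp at 11486 CPM. It held 9904 CPM of Elane, 8107 of Prtn3, 5443 of Mpo and 3012 of Ctsg. Elane was thus the third of the 4 genes in the cluster with Cd34 and the highest in the other, and its ratio to Mpo was 0.896 (libraries 0.760 to 1.41) and 1.82 (libraries 1.67 to 2.24). The precursor-like class had Camp at 1653 and Fcnb at 419 CPM, below the cluster led by Ms4a3, Prss57 and Nkg7. How many cells that cluster shares with the Fcnb-led cluster was not counted. Whether the ratio differs in this way within the precursor-like class was not tested.

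The levels were also set against the load of secondary granule mRNA in the 2309 cells of the precursor-like class and the Fcnb-led cluster. These were grouped by the summed UMIs of Ltf, Camp, Ngp and Lcn2 per 10000 UMIs of the cell, and the 4 genes were counted per 1000000 of the other UMIs, so that secondary granule mRNA could not dilute them. In the 578 cells with under 1 secondary granule UMI per 10000, Elane stood at 6055, Prtn3 at 6371, Mpo at 5119 and Ctsg at 3194 per 1000000. In the 77 cells with 10 to 100, Elane stood at 13983, Prtn3 at 10787 and Mpo at 7604 per 1000000, their highest values, while Ctsg stood at 3469, close to the 3654 of the 53 cells with 1 to 10. In the 840 cells with 100 to 1000, the levels were 2792, 2199, 986 and 327 per 1000000 for Elane, Prtn3, Mpo and Ctsg. In the 761 cells with 1000 or more they were 123, 175, 17.0 and 6.10 per 1000000. The group with the highest Elane and Mpo thus held some secondary granule mRNA, and the levels were lower in each heavier group after that. Classes outside the lineage held such mRNA too. Camp and Ngp stood at 2397 and 1894 CPM in mast-like cells and at 54.0 and 94.7 CPM in T cell-like cells. In stem and progenitor-like cells they stood at 190 and 194 CPM. Whether the low and middle loads were the cells' own mRNA was not tested, so they fix no order in time. Of the 2 middle groups, 2 and 3 libraries had 10 or more cells, with Elane from 10176 to 10830 and from 12214 to 14788 per 1000000.

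**Figure D2:**
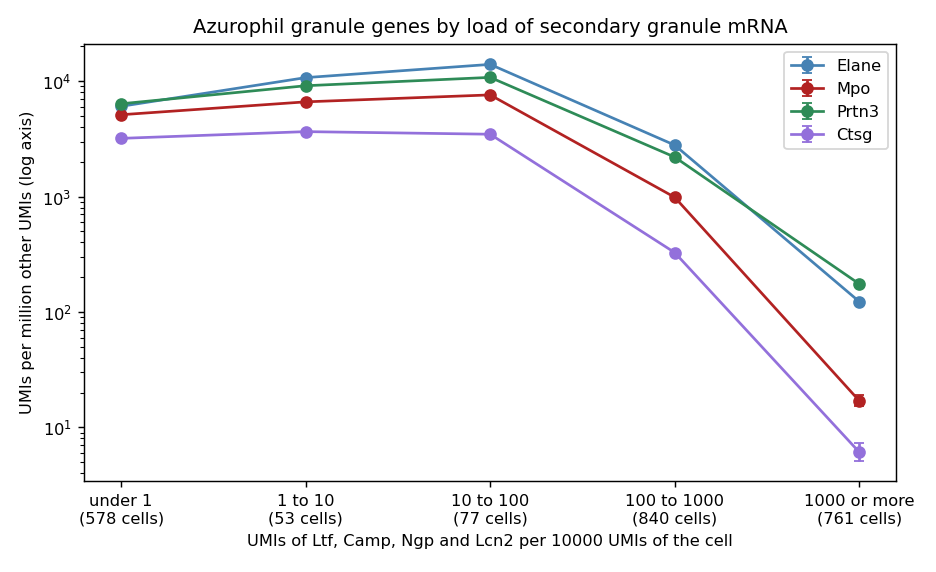
UMIs of each gene per 1000000 UMIs other than those of Ltf, Camp, Ngp and Lcn2 (log axis), in precursor-like and Fcnb-led cluster cells grouped by their load of those 4 secondary granule mRNAs; points are all cells of a group and bars are 95% Poisson intervals. Elane is highest at 13983 per 1000000 in cells with 10 to 100 secondary granule UMIs per 10000. All 4 genes are lowest in the heaviest group, where every cell is of the Fcnb-led cluster.

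With the libraries pooled, detection in single cells did not follow the order of the levels. Elane, the highest in CPM in the precursor-like class, was found in the smallest share of its cells. This did not hold in each library. Prtn3 was above Elane in CPM in libraries 1 and 5, and in library 4 Elane was found in 100% of the cells and Mpo in 97.2%. In the precursor-like class 88.7% of cells (86.2 to 90.7) held all 4 mRNAs and 1.47% held none. In the stem and progenitor-like cluster 10.5% held all 4 and 38.7% held none. There, cells with Elane nearly always held Mpo (93.9% of 66 cells), but only 26.5% of the 234 cells with Mpo held Elane. In the Fcnb-led cluster the nesting was turned round: 85.7% of the 447 cells with Mpo held Elane and 59.5% of the 644 cells with Elane held Mpo. After thinning each cell to 2000 UMIs, these shares were 94.4 and 25.4% in the stem and progenitor-like cluster and 96.5 and 55.1% in the Fcnb-led cluster. The nesting and the ratios above come from the same UMIs and are not separate observations.

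Outside the granulocyte lineage the 4 genes parted. In monocyte-like cells (2358 cells), Prtn3 stood at 234 CPM (229 to 239), with libraries at 96.9, 168 and 323 CPM, and 55.3% of the cells held it (20.8% after thinning). Elane was at 82.1 CPM, Ctsg at 36.7 and Mpo at 16.6, and 841 of the cells held Prtn3 as the only member of the 4. Prtn3 made up 63.3% of the 4 genes' UMIs there. There were 14.1 Prtn3 UMIs per Mpo UMI, against 1.30 in the precursor-like class and 2.61 in the Fcnb-led cluster. The ratio was 4.48 in T cell-like and 0.497 in B cell-like cells. A large Prtn3 share was not particular to monocyte-like cells. At lower levels, it was 58.8% in plasma-like, 57.5% in T cell-like and 53.3% in dendritic-like cells. By contrast, it was 22.7% in B cell-like and 28.7% in resident macrophage-like cells. Of the monocyte-like cells, 209 with 10 or more Prtn3 UMIs held 66.3% of that gene's UMIs, and the rest stood at 91.6 CPM. All of those 209 cells held Ly6c2 and F13a1, monocyte genes, which 97.2 and 97.6% of the other monocyte-like cells held too. The precursor gene Ms4a3 was found in 16.7% of the 209 cells, against 1.16% of the others. Prss57 and Cst7, also leading genes of the precursor-like class, were found in 5.74 and 34.0%, against 0.651 and 2.56%. Of the 209 cells, 90.4% held Mki67, which stood at 193 CPM against 57.8 CPM in the other monocyte-like cells. Their median depth was 22967 UMIs against 14529, and its part in these shares was not tested.

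An unnamed cluster of 886 cycling cells, led by the histone genes Hist1h1b, Hist1h2ae and Hist1h2ap, leaned the same way. It held Prtn3 at 631 CPM, Elane at 294, Ctsg at 163 and Mpo at 77.9, with 8.10 Prtn3 UMIs per Mpo UMI. Nonclassical monocyte-like cells held Prtn3 at 76.9 CPM, with libraries at 5.62, 38.8 and 129, above Elane at 25.9, Mpo at 20.1 and Ctsg at 13.6. In inflammatory macrophage-like and resident macrophage-like cells, Prtn3 was at 15.8 and 19.4 CPM and was found in 5.86 and 1.12% of cells. Of those cells, 14 and 5 held 73.1 and 95.6% of the Prtn3 UMIs, and without them the levels were 4.27 and 0.869 CPM.

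Mast-like cells showed a different member. Ctsg stood at 140 CPM (120 to 164) in 191 cells, with libraries at 70.4, 105 and 544 CPM, and was found in 22.0% of them. Prtn3 was at 59.3, Mpo at 18.3 and Elane at 10.5 CPM. Without cells of 10 or more UMIs of the gene, Ctsg was at 80.9 CPM and the other 3 genes were at 3.63 to 10.5 CPM, so that Ctsg made up the larger part in either case. The 2 mast-like cells with 10 or more Prtn3 UMIs held 94.1% of that gene's UMIs. The 52 basophil-like cells held 19 Ctsg UMIs, 63.2% of them in 1 cell, and 2 of Elane, 1 of Mpo and 0 of Prtn3.

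NK-like cells had high pooled levels that came from few cells. They held Prtn3 at 347 CPM, Elane at 227, Mpo at 160 and Ctsg at 118, but the libraries ran from 0 to 1506 CPM for Prtn3. Of 378 cells, 15 held 97.8% of the Prtn3 UMIs. Those 15 cells came from 4 libraries. Of them, 60.0% held Ms4a3 and 26.7% held the NK gene Ncr1, against 1.10 and 81.3% of the other NK-like cells. The NK genes Klrb1c and Eomes were each found in 46.7%, against 84.8 and 74.1%, and the monocyte gene Ly6c2 in 100%, against 33.6%. Their median depth was 39502 UMIs against 9669, and its part in these shares was not tested. These cells thus held markers of more than 1 lineage, and the name of their cluster is uncertain for them. Without cells of 10 or more UMIs of the gene, the levels in NK-like cells were 8.54, 6.64, 0.219 and 5.52 CPM for Prtn3, Elane, Mpo and Ctsg. In T cell-like cells the levels were 16.0, 4.09, 3.57 and 4.16 CPM, and 0.335 to 1.84% of the cells held a UMI. There, 3 of 1193 cells held 84.7% of the Prtn3 UMIs, and without cells of 10 or more UMIs of the gene the levels were 2.47, 0.448, 0.671 and 0.149 CPM.

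**Figure D3:**
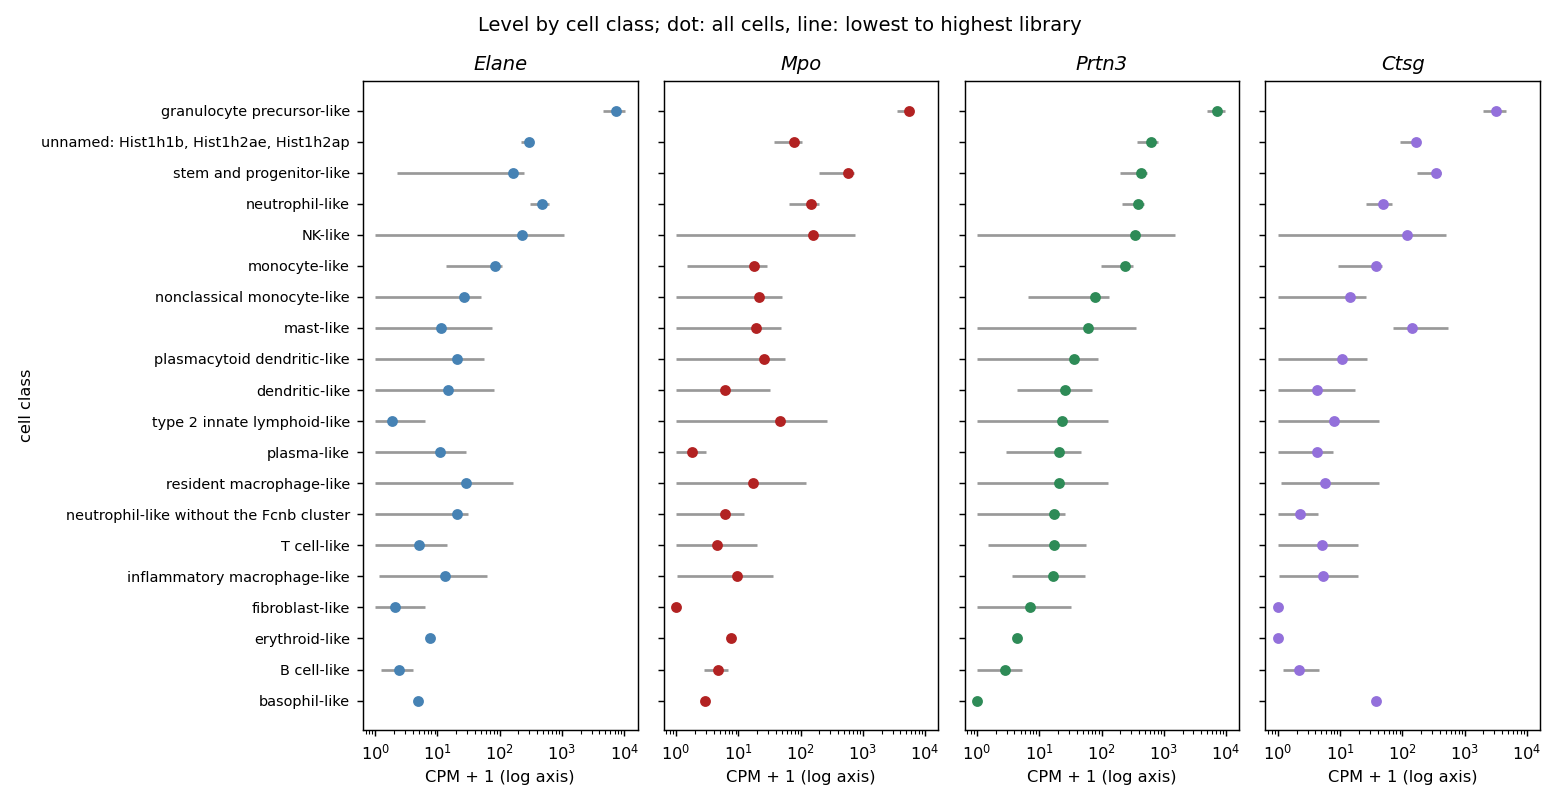
Level of each gene as CPM + 1 (log axis) by cell class; dots are all cells of a class and lines run from the lowest to the highest library, for classes with 10 or more cells in at least 2 libraries. The precursor-like class is the highest for all 4 genes, Prtn3 is the highest of the 4 in monocyte-like cells (234 CPM) and Ctsg in mast-like cells (140 CPM), although other classes hold more of either gene.

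**Figure D4:**
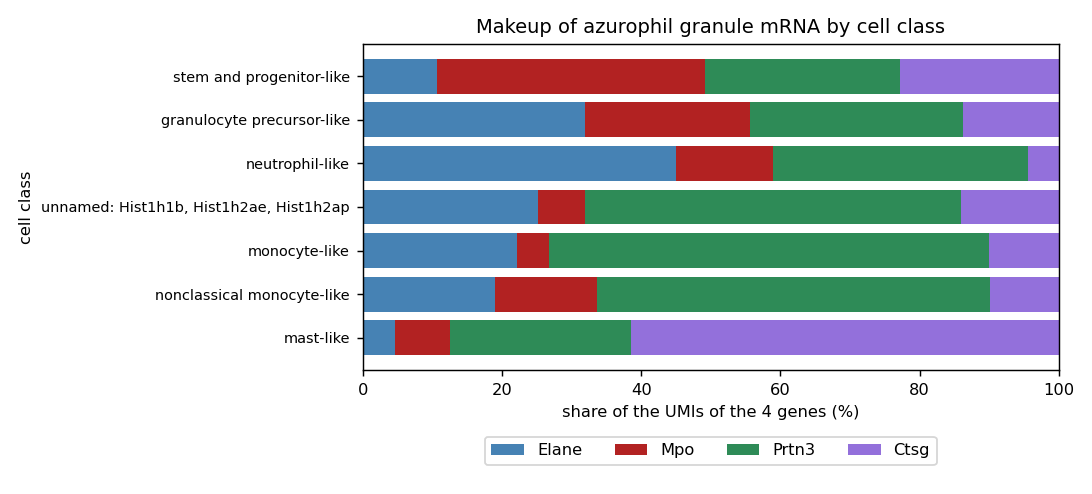
Share of each gene among the UMIs of the 4 genes (%) in 7 cell classes. Mpo takes the largest share in stem and progenitor-like cells, Elane in neutrophil-like cells, Prtn3 in monocyte-like cells (63.3%) and Ctsg in mast-like cells (61.5%).

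Below these, the order of classes was weakly fixed. Library ranges overlapped between neighbours in the order for Elane from the neutrophil-like class at 476 CPM down to the plasma-like class at 10.0 CPM, and most neighbouring Elane values from 27.6 CPM down overlapped in their counting intervals too. For Mpo, the stem and progenitor-like class at 578 CPM stood second, and its lowest library (197 CPM) lay below the highest NK-like library (738 CPM). The table also stores explicit zeros, 2196 for Elane, 2076 for Mpo, 2330 for Prtn3 and 1115 for Ctsg, in entries where a gene and a cell are listed with a count of 0. Of T cell-like cells, 5.95% had such an entry for Prtn3, and of precursor-like cells, 1.07% had 1 for Elane. What wrote them is not given in the sources used here.

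Between the 6 libraries, the amount of azurophil granule mRNA differed more than its level within precursor-like cells. Over all cells of a library, Elane stood at 112, 392 and 936 CPM (lowest, median and highest), an 8.36-fold span. The spans were 8.99-fold for Mpo (72.6, 228 and 653 CPM), 9.29-fold for Prtn3 (102, 355 and 948 CPM) and 8.93-fold for Ctsg (36.3, 156 and 324 CPM). Library 3 was the lowest and library 6 the highest for each gene. Within precursor-like cells the spans were 2.30-fold for Elane, 1.68-fold for Mpo, 1.93-fold for Prtn3 and 2.39-fold for Ctsg, and the highest library was library 4 for all but Mpo.

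The share of precursor-like cells was 0.777, 1.72, 0.685, 0.901, 3.06 and 3.73% in libraries 1 to 6, a 5.45-fold span. The share of cells in the Fcnb-led cluster was 1.94, 3.24, 0.788, 3.10, 6.80 and 6.96%, an 8.83-fold span. Libraries 5 and 6 had the largest shares of both and the highest levels over all cells for each gene. The precursor-like class held between 49.7 and 75.1% of a library's Elane UMIs and between 71.5 and 85.3% of its Mpo UMIs, with library 1 the lowest for both. Libraries 1 and 3, which had the lowest precursor-like levels, held 26 and 20 such cells, while library 4, the highest for Elane at 10318 CPM, held 36. Whether shares or levels differ with treatment was not tested. Of the 749 precursor-like cells, 4 carried a barcode that also occurred in another library, and 0 barcodes were shared by a pair of precursor-like cells.

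**Figure D5:**
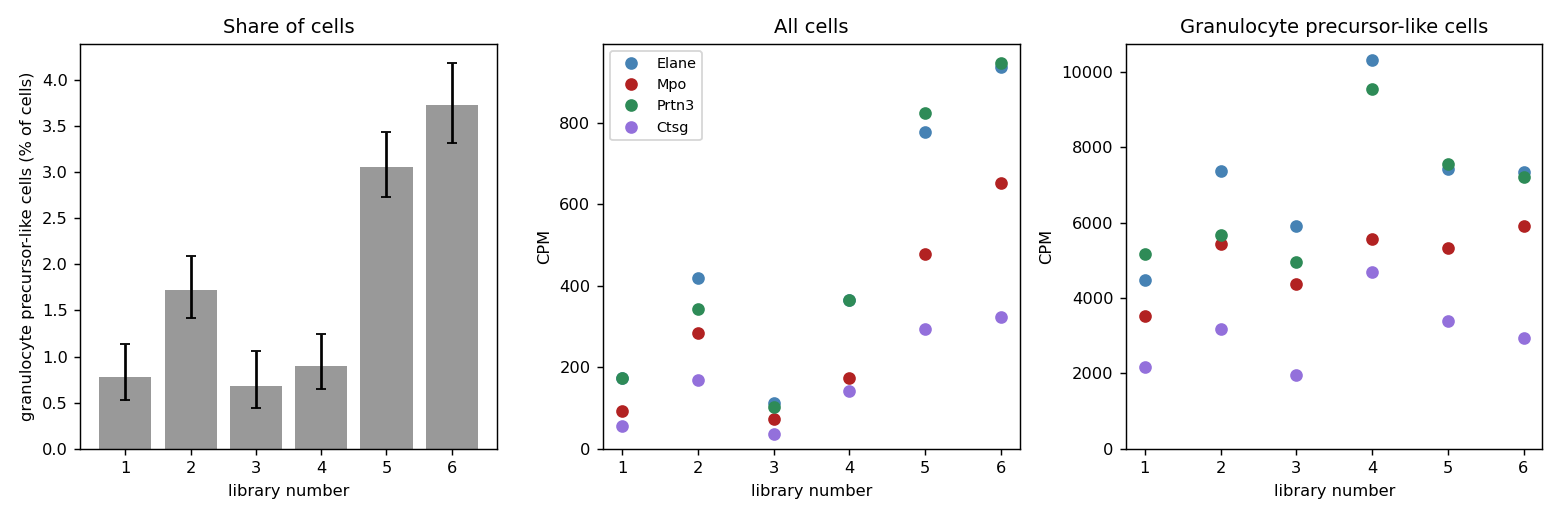
Precursor-like cells as a share of cells with 95% Wilson intervals (left), CPM of each gene over all cells (middle) and CPM within precursor-like cells (right), by library number. Libraries 5 and 6 are highest in the left and middle panels, while in the right panel library 4 is highest for Elane, Prtn3 and Ctsg.

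Other azurophil granule and precursor genes did not all share the pattern. Of 15 with enough UMIs, 8 were at least 2-fold higher in precursor-like than in neutrophil-like cells, 1 was at least 2-fold lower and 6 lay between, with a median of 2.54 beside the 2.18 of all genes. This count is close to the 53.1% of all genes, and 4 of the 8 (Ms4a3, Prss57, Cst7 and Nkg7) are leading genes of the precursor-like cluster, so their place was set by how the class is defined. Here and in the lists below, the neutrophil-like class includes the Fcnb-led cluster, and no count was made without it. Prss57, a further azurophil serine protease, was at 230 against 25.5 CPM (9.01-fold). Ctsc, the peptidase that activates the proteases, was at 239 against 32.0 CPM (7.45-fold), and Cst7, an inhibitor of Ctsc, at 224 against 8.21 CPM (27.3-fold). Srgn, the proteoglycan that packs the proteases, was at 2734 and 2377 CPM (1.15-fold). Lyz2, lysozyme, was the gene that was lower, at 1180 against 7619 CPM.

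Against neutrophil-like cells, the precursor-like class held more mRNA for helpers of Mpo folding and less for the makers of its substrate. All 4 endoplasmic reticulum chaperones on the list were at least 2-fold higher in the precursor-like class, with a median of 6.41, where 53.1% of all genes were that much higher. Calr, which binds newly made myeloperoxidase, was at 1198 against 63.8 CPM (18.8-fold), Canx at 338 against 50.3 CPM and Hspa5 at 891 against 146 CPM. All 6 genes of the NADPH oxidase, whose superoxide gives the hydrogen peroxide that myeloperoxidase uses, were at least 2-fold lower, with a median of 0.422, where 12.4% of all genes were that much lower. Cybb, its catalytic subunit, was at 207 against 1336 CPM. Against stem and progenitor-like cells the picture was another, with Calr at 1.86, Hspa5 at 1.79 and Canx at 1.15 times the level there, and with Cybb at 9.70, Ncf4 at 6.09 and Cyba at 4.53 times.

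Regulators and inhibitors differed by gene. Of 10 regulators, 8 were at least 2-fold higher in precursor-like cells and 0 at least 2-fold lower, with a median of 8.04, beside 53.1% of all genes that were at least 2-fold higher and 12.4% at least 2-fold lower. Gfi1 and Cebpe are on the marker list that named the precursor-like class. Both, with Cebpa and Myb, are also among the precursor genes that ordered the clusters. The count is thus not separate from how the classes were named and ordered. Irf8 was at 235 against 4.50 CPM (52.1-fold), Cebpa at 41.3 against 3.07 CPM (13.5-fold), Myb at 192 against 21.0 CPM and Gfi1, a repressor needed for neutrophil development, at 40.2 against 5.33 CPM. Irf8 was not particular to the precursor-like class, and stood at 122 CPM in monocyte-like cells. Cebpe and Spi1 lay between, at 0.727 and 0.763 times the neutrophil-like level. Cebpe was at 135 CPM in precursor-like cells, 337 CPM in the Fcnb-led cluster and 96.7 CPM in the other neutrophil-like clusters. Spi1 was at 326, 371 and 461 CPM there. Against stem and progenitor-like cells, Cebpe stood at 25.8, Gfi1 at 7.67 and Irf8 at 3.88 times the level there. Klf4 stood at 2.73, Cebpa at 2.10 and Spi1 at 1.67 times. The others were lower, Myb at 0.802, Runx1 at 0.559, Etv6 at 0.411 and Gata2 at 0.0271 times. The median of all genes in this comparison was 0.875. Of 8 protease inhibitors, 2 were at least 2-fold higher and 5 at least 2-fold lower. Serpinb1a, an inhibitor of all 3 proteases, lay between at 483 and 446 CPM, and was at 2780 CPM in mast-like cells. Slpi, a secreted inhibitor of elastase and cathepsin G, was at 404 against 1423 CPM. The 3 stefin genes Stfa1, Stfa2 and Stfa3, inhibitors of cysteine proteases, were at 0.155 to 1.70 CPM against 28.2 to 97.5 CPM. Serpina1a and A2m were not analysed here.

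The stage genes used for comparison went the way their names say. All 4 secondary granule genes and all 5 late genes were at least 2-fold lower in precursor-like cells, with medians of 0.0187 and 0.0199, but both lists were partly used to name the classes. Among all genes compared between the 2 classes, 53.1% were at least 2-fold higher and 12.4% at least 2-fold lower. Of 7 genome neighbours of the 4 genes with enough UMIs, 3 were at least 2-fold higher and 1 at least 2-fold lower. Another 1 lay between. The other 2, Mcpt4 and Cma1, had 0 UMIs in the precursor-like class and under 1 CPM in neutrophil-like cells, too few to place them. The counts of higher and lower neighbours are close to the shares of all genes. Cfd, the next coding gene after Elane at a distance of 2637 bases, was at 0.734 CPM in the precursor-like class. Lpo, next to Mpo and also a peroxidase, was at 1.35 CPM. Mcpt8, next to Ctsg, was at 17.1 CPM in precursor-like and 1971 CPM in basophil-like cells, and Mcpt4 and Cma1, further mast cell proteases, were at 18810 and 10331 CPM in mast-like cells and at 0 UMIs in the precursor-like class.

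Across the 33 clusters, the genes most like each member in level were mostly the other members. Among 15419 genes, Pearson's r of log2(CPM + 1) was 0.938 between Elane and Prtn3, 0.883 between Elane and Mpo, 0.883 between Mpo and Ctsg, 0.880 between Mpo and Prtn3, 0.868 between Prtn3 and Ctsg and 0.860 between Elane and Ctsg. The members took the first 3 places for Elane, Mpo and Prtn3 and places 1, 2 and 4 for Ctsg. Outside the 4, Ms4a3 was the nearest to Elane (0.859), and Plppr3 was the nearest to Mpo (0.814), Prtn3 (0.864) and Ctsg (0.860). Plppr3 is the opposite-strand neighbour that overlaps Prtn3, and it is listed here for its level alone. These values describe the clusters, which share libraries and cells of the same lineage, and carry no test.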

How the data were processed

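Single-cell 3′ RNA sequencing was done on 6 samples. Per the study's methods, the authors aligned reads to mm10 with Cell Ranger 7.0.0, subtracted ambient RNA with SoupX 1.6.2, removed doublets with DoubletFinder 2.0.3, and with Seurat 4.3.0 kept cells with 200 to 7000 genes and at most 10% mitochondrial content. The deposited values are whole UMI counts for 20394 genes and 32953 cells (486548899 UMIs, 1724738 stored zeros), so ambient subtraction lowers small counts and the gene limit can remove large cells. The study states the same number of cells. No further cells or doublets were removed.

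Counts were scaled to 10000 per cell and logged. The 2000 most variable genes without the 4 members, 30 principal components, 15 neighbours and Leiden clustering (resolution 1.0, seed 0, scanpy 1.11.5, igraph 0.11.9) gave 33 clusters, of which 32 were named. A name needed the most markers of that class among the 10 leading genes (then the 30 leading, then those detected in 25% of cells) and at least 3 detected markers. CPM are summed UMIs per 1000000. Fold comparisons took genes with at least 20 UMIs in the classes compared, and a count of 0 was set to 3 UMIs in the counts over all genes. Likeness took the 5 genes with the highest r among genes of at least 100 UMIs. The fold script was tested on simulated counts. Members, gene lists and markers were chosen with earlier results of these data known. The split at 10 UMIs, the groups by secondary granule mRNA and the class without the Fcnb-led cluster were chosen after seeing the data. Alternatives were 2 other resolutions, clustering with the members, gates on single cells, leaving out each library, library medians, cell means, at least 2 UMIs and thinning to 2000 UMIs. Genes named are the members and the listed pathway genes, some of which are not reported here. No p-value was computed.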

Additional observations from a re-analysis of the deposited data

How the results depend on the processing

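No paired analysis was possible because the numbers at the ends of the barcodes match no sample in the labels, so no vehicle library could be set beside a PEPITEM library. The 16 values of this section are the CPM of the 4 genes in the granulocyte precursor-like and neutrophil-like classes, the percent of precursor-like cells with a UMI, and the fold of the first class over the second. Over 196 values under alternatives, 0 folds turned below 1, 57 values stayed within the counting interval of the reported value and 139 moved outside it. Such intervals are narrow at this depth and cover counting error only. The neutrophil-like values and the folds moved most. Leaving out the Fcnb-led cluster alone took Elane from 476 to 19.6 CPM. At the resolution of 0.5 no cluster was named granulocyte precursor-like, so the other values could not be given there.

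With the Leiden resolution at 0.5 the CPM in neutrophil-like cells was 471 for Elane, 145 for Mpo and 384 for Prtn3. With the resolution at 2.0 the CPM in precursor-like cells was 6250 for Elane, 4108 for Mpo, 5743 for Prtn3 and 2288 for Ctsg. The percent of precursor-like cells with a UMI was 79.2 for Elane, 77.6 for Mpo, 89.3 for Prtn3 and 76.3 for Ctsg. The CPM in neutrophil-like cells was 145 for Elane, 39.6 for Mpo, 144 for Prtn3 and 12.8 for Ctsg. The fold was 43.0 for Elane, 104 for Mpo, 39.8 for Prtn3 and 178 for Ctsg. With the 4 genes allowed among the variable genes the CPM in precursor-like cells was 4740 for Mpo, 6686 for Prtn3 and 2588 for Ctsg. The percent of precursor-like cells with a UMI was 98.4 for Elane, 97.5 for Mpo, 99.6 for Prtn3 and 92.3 for Ctsg. The CPM in neutrophil-like cells was 46.7 for Elane, 8.81 for Mpo, 58.7 for Prtn3 and 3.21 for Ctsg. The fold was 159 for Elane, 538 for Mpo, 114 for Prtn3 and 805 for Ctsg. With cells gated singly on marker UMIs the CPM in precursor-like cells was 8354 for Elane, 5220 for Mpo, 7150 for Prtn3 and 2987 for Ctsg. The percent of precursor-like cells with a UMI was 79.1 for Elane, 77.0 for Mpo, 87.9 for Prtn3 and 74.6 for Ctsg. The CPM in neutrophil-like cells was 3.72 for Elane, 2.13 for Mpo, 7.28 for Prtn3 and 1.36 for Ctsg. The fold was 2247 for Elane, 2450 for Mpo, 982 for Prtn3 and 2196 for Ctsg. As a median over the 6 libraries the CPM in precursor-like cells was 7359 for Elane, 5378 for Mpo, 6435 for Prtn3 and 3064 for Ctsg. The CPM in neutrophil-like cells was 420 for Elane, 130 for Mpo, 342 for Prtn3 and 42.3 for Ctsg. The fold was 15.9 for Elane and 20.7 for Prtn3. As a mean over cells, each scaled to the same depth, the CPM in precursor-like cells was 7011 for Elane, 5162 for Mpo, 6775 for Prtn3 and 2912 for Ctsg. The CPM in neutrophil-like cells was 160 for Elane, 51.2 for Mpo, 132 for Prtn3 and 15.4 for Ctsg. The fold was 43.8 for Elane, 101 for Mpo, 51.2 for Prtn3 and 189 for Ctsg. With 2 or more UMIs required in place of 1, the percent of precursor-like cells with a UMI was 92.3 for Mpo. In cells thinned to 2000 UMIs the percent of precursor-like cells with a UMI was 82.7 for Elane, 85.6 for Mpo, 95.8 for Prtn3 and 87.1 for Ctsg. Without the Fcnb-led cluster the CPM in neutrophil-like cells was 19.6 for Elane, 5.06 for Mpo, 16.3 for Prtn3 and 1.28 for Ctsg. The fold was 378 for Elane, 1084 for Mpo, 436 for Prtn3 and 2484 for Ctsg. Without cells holding 10 or more UMIs of the gene the CPM in neutrophil-like cells was 8.38 for Elane, 5.89 for Mpo, 11.9 for Prtn3 and 6.01 for Ctsg. The last 2 alternatives were chosen after seeing the data, and the stored zeros were counted beside the UMIs and give no fold of their own.

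The 6 fits that each drop a library gave these ranges. The CPM in precursor-like cells ran from 7214 to 7540 for Elane, 5215 to 5565 for Mpo, 6876 to 7353 for Prtn3 and 3081 to 3334 for Ctsg. The percent of precursor-like cells with a UMI ran from 89.2 to 92.6 for Elane, 93.8 to 95.2 for Mpo, 97.4 to 98.8 for Prtn3 and 94.7 to 96.0 for Ctsg. The CPM in neutrophil-like cells ran from 428 to 499 for Elane, 126 to 158 for Mpo, 348 to 412 for Prtn3 and 42.8 to 50.4 for Ctsg. The fold ran from 14.5 to 17.4 for Elane, 34.6 to 41.4 for Mpo, 17.3 to 20.3 for Prtn3 and 61.1 to 77.8 for Ctsg. The precursor gate held 527 cells (69 of them at the threshold of 2 UMIs), of which 242 were in the precursor-like class, 159 in the Fcnb-led cluster and 67 in the stem and progenitor-like class.

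Limits of depth and design are these. No value could be set against treatment. The digested joints also gave 589 stem and progenitor-like cells and a B cell-like cluster of 621 cells led by Vpreb1, Igll1 and Lef1. The tissue of the knee that these and the precursor-like cells came from was not tested. The highest number of genes per cell that was kept lies close to the precursor-like cells: 98 of 749 (13.1%) held over 6500 genes, against 1.10% of all cells, and cells above the limit were not analysed here. Libraries 1, 3 and 4 held 26, 20 and 36 precursor-like cells, and their values are the least precise. Shares of cells with a UMI depend on depth, and ambient RNA had been subtracted before deposit, so low levels carry an error that the intervals do not hold.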
